A study of Homo sapiens with 6 samples.

Results

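The TNF superfamily pairs small trimeric ligands, most of them anchored in the membrane of the cell that presents them, with receptors that recruit TRAF adaptors or, where they carry a death domain, the apoptosis machinery. In B cells the ligands BAFF (TNFSF13B) and APRIL (TNFSF13) bind the receptors TACI (TNFRSF13B), BAFF-R (TNFRSF13C) and BCMA (TNFRSF17), and these contacts are known to keep mature B cells and plasma cells alive. Open chromatin at these genes was read here in a B-cell line. Members were all autosomal protein-coding genes of GENCODE whose symbol is TNFSF or TNFRSF followed by a digit. They were 33 of 19229 genes, namely 11 ligands, 21 receptors and 1 readthrough gene, TNFSF12-TNFSF13, whose window lies within those of the 2 ligand genes it joins and which was therefore left out of the counts, leaving 32. A gene was called in a library when a peak overlapped its gene body extended by 5 kb on each side.

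The peaks came from 6 bulk ATAC-seq libraries of GM12878, an established human lymphoblastoid line made by Epstein-Barr virus transformation of B cells. ATAC-seq inserts adapters into accessible DNA with the Tn5 transposase. All cells were fixed in 1% PFA and transposed for 30 min, and crosslinks were reversed overnight at 65 °C with proteinase K. The protocols, with 2 libraries each, were the old buffer, which contains SDS, followed by DNA purification; the new buffer, which is free of SDS, followed by purification; and the new buffer with no purification, which is the bulk form of the Pi-ATAC workflow that the labels call MI-ATAC. The labels do not say whether the 2 libraries of a protocol came from separate cultures, so every p-value measures the spread between libraries of 1 line, which may be technical. In bulk libraries, fewer cells with an open site and a less open site in every cell cannot be told apart.

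The libraries held 30136 to 38023 peaks. Total reads are not in the lists, so depth is known only as a ratio, and the deepest library had 1.24 times the lowest background read level of the shallowest. The median peak had 20 to 22 reads at its summit and the weakest 8 or 9, so a gene without a call was not detectable as a peak at this depth. Promoters, taken as 1 kb on each side of any protein-coding start, were used to check the label of the line. Of the B-cell markers, MS4A1 and EBF1 had a promoter peak in all 6 libraries, as did 45.4% of all genes. CD79A had one in 4, CD22 in 3 and PAX5 in 1, and CD79B had one only in replicate 1 of the new buffer with purification. Promoters of 5 of 7 T-cell, 4 of 5 myeloid, 4 of 4 erythroid and 4 of 4 epithelial markers had no peak in any library, against 39.5% of all genes. The exceptions were the T-cell markers CD8A and TCF7, called in all 6, and the myeloid marker CD14, called in 4. In the wider gene windows, CD3G (T cell), KLF1 (erythroid) and CDH1 (epithelial) also had a peak in all 6.

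Of the 32 genes, 18 (56.3%) had a peak in all 6 libraries, against 59.6% of all genes. A further 7 were called in 1 to 5 libraries, against 16.7% of all genes, and 7 in none, against 23.7%. By class, 6 of 11 ligands and 12 of 21 receptors were called in all 6, and 3 ligands and 4 receptors in none. The median window was 28.0 kb for ligands, 37.3 kb for receptors and 37.6 kb for all genes. The genes without a peak in any library were the ligands TNFSF8 (CD30L), TNFSF11 (RANKL, the osteoclast differentiation factor) and TNFSF18 (GITRL), and the receptors TNFRSF4 (OX40), TNFRSF6B (DcR3, a soluble decoy), TNFRSF9 (4-1BB) and TNFRSF25 (DR3, a death receptor). OX40 and 4-1BB are best known as costimulatory receptors of activated T cells.

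**Figure D1:**
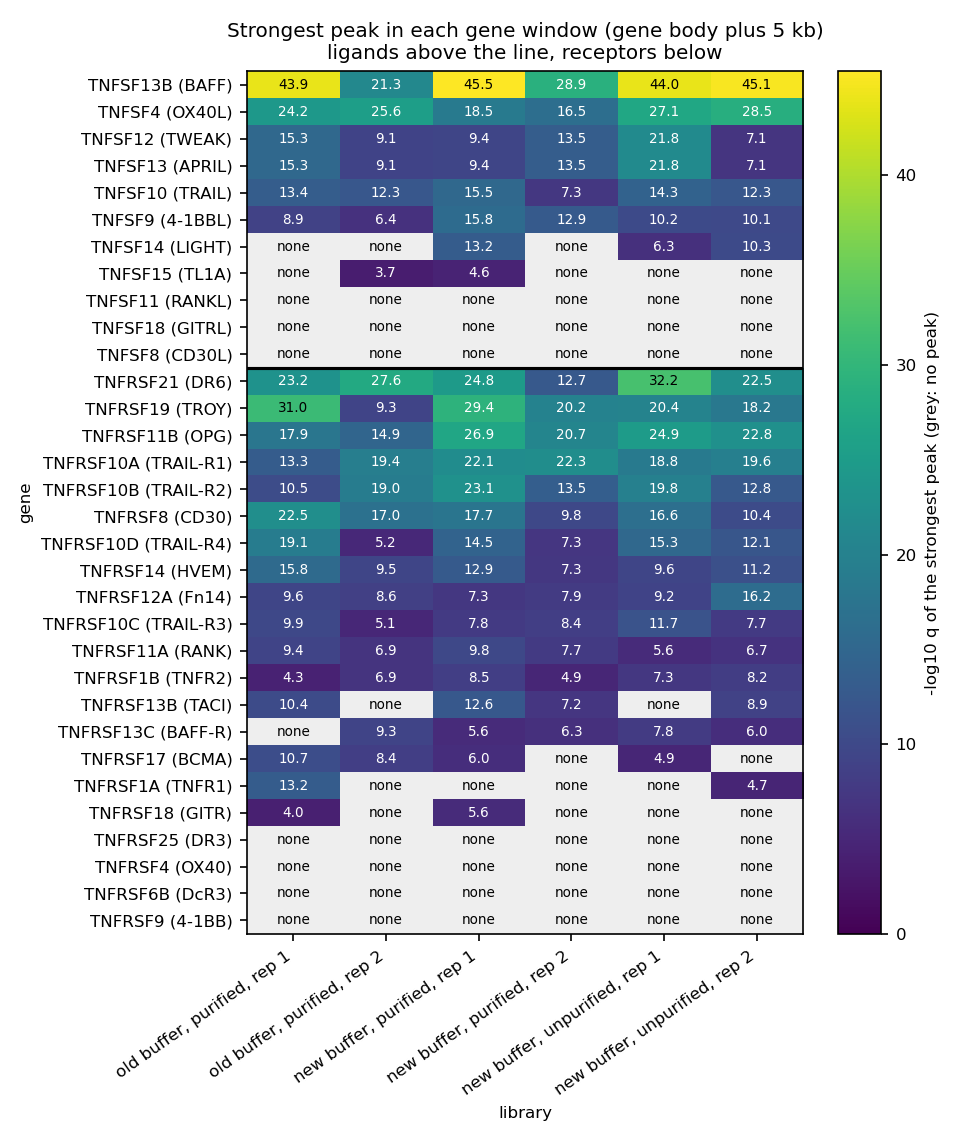
Strongest peak at each family gene. Rows are the 11 ligands and 21 receptors, columns the 6 libraries, and each cell gives the −log10 q of the strongest peak in the gene's window, with "none" where no peak was called; TNFSF13B holds the highest value of all rows in 5 of 6 libraries and the receptors of BAFF and APRIL each lack a call in at least 1 library.

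BAFF, the B-cell survival factor encoded by TNFSF13B, had the strongest peak of the family by the mean over libraries. It ranked 1421 of 19229 genes, within the top 7.39%, and between 907 and 4043 in single libraries. The peak, at chr13:108921836-108922758 in hg19, covered the starts of the protein-coding transcripts, with its summit 172 bp downstream of the nearest of them. The −log10 q was 43.9 and 21.3 in the old-buffer libraries, 45.5 and 28.9 in the purified new-buffer libraries and 44.0 and 45.1 in the unpurified ones. The summit held 71 and 43 reads in the old-buffer libraries, 70 and 54 in the purified new-buffer libraries and 69 and 67 in the unpurified ones. Replicate 2 of the old buffer was the lowest, followed by replicate 2 of the new buffer with purification, and the other 4 libraries lay close together. A weaker region about 20 kb upstream of these starts, at chr13:108901433-108902212 and just outside the annotated gene body, which a transcript without a defined coding sequence opens at 108903588, was also called in all 6 libraries, with 17 and 26 reads in the old-buffer libraries, 33 and 17 in the purified new-buffer libraries and 22 and 24 in the unpurified ones.

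APRIL, encoded by TNFSF13, had no peak at its own promoter in any library. Its window held 1 region, which lay over the promoter of the neighbouring gene SENP3 at chr17:7464743-7465497 and was shared with the window of TNFSF12 (TWEAK, a ligand of tissue repair). The −log10 q of this region was 15.3 and 9.14 in the old-buffer libraries, 9.42 and 13.5 in the purified new-buffer libraries and 21.8 and 7.06 in the unpurified ones, and both genes therefore ranked 8717. The only other region in the TNFSF12 window was intronic and was called in replicate 1 of the new buffer with purification.

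None of the 3 receptors of BAFF and APRIL was called in all 6 libraries, whereas all 3 were called in 4 or 5, with a rank by mean between 11856 and 12474 of 19229. At TNFRSF13B (TACI), the strongest region was intronic, at chr17:16867893-16868308, 7263 bp downstream of the start. Its −log10 q by library was 10.4 and no call in the old-buffer libraries, 12.6 and 7.23 in the purified new-buffer libraries and no call and 8.95 in the unpurified ones, so that it was missing in 1 library of the old buffer and 1 of the unpurified protocol. The promoter of TACI was called only in replicate 2 of the unpurified protocol, with a −log10 q of 3.48. Further regions lay 1802 bp downstream and 3310 bp upstream of the start, in 3 and 2 libraries.

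At TNFRSF13C (BAFF-R, the main BAFF receptor of resting B cells), the strongest region by mean was intergenic, at chr22:42315678-42316256, beyond the 3′ end of the gene and 6824 bp from its start, with SHISA8 as the gene with the nearest start. Its −log10 q by library was no call and 9.34 in the old-buffer libraries, 5.58 and 6.16 in the purified new-buffer libraries and 7.83 and 6.01 in the unpurified ones. It was missing only in replicate 1 of the old buffer. The promoter of the gene was called in 2 libraries, with a −log10 q of 6.30 in replicate 2 of the purified and 5.76 in replicate 1 of the unpurified new buffer. At TNFRSF17 (BCMA, the receptor of plasma cells), the called regions were promoter regions with summits 284 bp and 647 bp upstream of the start. Both summits also lay within the body of another protein-coding gene, NPIPB2. For the nearer, at chr16:12058625-12059139, the −log10 q by library was 10.7 and no call in the old-buffer libraries, 6.02 and no call in the purified new-buffer libraries and 4.94 and no call in the unpurified ones. For the farther, at chr16:12058219-12058576, it was 4.85 and 8.41 in the old-buffer libraries, 2.56 and no call in the purified new-buffer libraries and no call in the unpurified ones. Neither region was called in replicate 2 of the new buffer with or without purification, and the 4 other libraries had at least 1 of them. The receptor peaks had 12 to 26 reads at the summit, near the median of 20 to 22 over all peaks, whereas the BAFF promoter had 43 to 71.

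**Figure D2:**
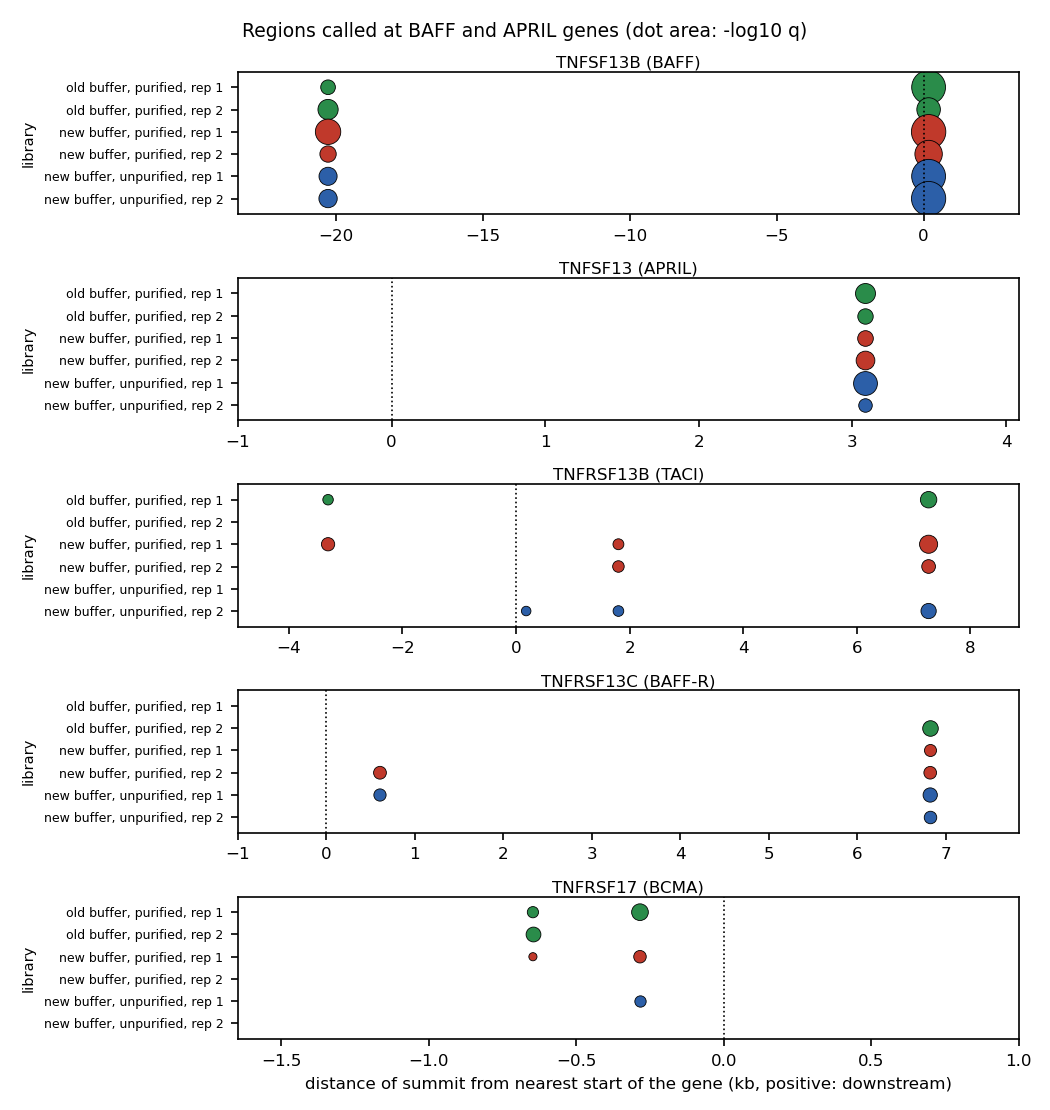
Position of peaks at the genes of BAFF, APRIL and their receptors. The x axis gives the distance in kb of each region's summit from the nearest start of the gene, rows are the 6 libraries and dot area scales with −log10 q; the TNFSF13B promoter dot is present and large in all 6 libraries, and each receptor has at least 1 library without any dot.

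Sequences around the summits are shown for the BAFF promoter peak, the strongest TACI and BAFF-R regions, and the strongest region of TNFSF4, the ligand with the second-ranked mean. Each is the plus strand of hg19 centred on the summit, at chr13:108922316-108922516, chr17:16868038-16868238, chr22:42315886-42316086 and chr1:173164851-173165051 in this order. Capitals mark matches to the motifs searched. The BAFF window consisted of coding bases of TNFSF13B throughout and held a match to the NF-kB consensus, the TACI window held AP-1 (TGANTCA) and RBPJ (TGGGAA) matches, the BAFF-R window held none, and the TNFSF4 window held 2 overlapping NF-kB matches.
TNFSF13B: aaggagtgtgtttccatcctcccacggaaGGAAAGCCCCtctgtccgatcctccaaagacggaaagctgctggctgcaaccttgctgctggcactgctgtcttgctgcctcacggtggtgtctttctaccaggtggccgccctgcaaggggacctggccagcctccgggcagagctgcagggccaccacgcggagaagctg
TNFRSF13B: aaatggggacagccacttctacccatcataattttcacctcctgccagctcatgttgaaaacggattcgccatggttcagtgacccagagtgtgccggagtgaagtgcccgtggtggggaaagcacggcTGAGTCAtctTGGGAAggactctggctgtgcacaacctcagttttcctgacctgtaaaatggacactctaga
TNFRSF13C: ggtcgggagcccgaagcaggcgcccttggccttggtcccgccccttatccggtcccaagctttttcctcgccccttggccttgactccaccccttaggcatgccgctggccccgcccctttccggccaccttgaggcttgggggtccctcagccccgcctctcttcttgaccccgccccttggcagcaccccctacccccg
TNFSF4: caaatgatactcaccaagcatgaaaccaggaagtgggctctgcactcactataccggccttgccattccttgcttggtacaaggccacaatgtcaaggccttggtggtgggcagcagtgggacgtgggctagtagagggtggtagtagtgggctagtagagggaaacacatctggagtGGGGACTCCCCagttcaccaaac

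The same windows were scanned on both strands at all 56 regions of the family and all 54338 autosomal regions. The NF-kB consensus, the binding site of the factor that many TNF receptors activate, matched in 8 family regions (14.3%) against 8.18% of all regions. AP-1 matched in 11 (19.6%) against 14.3%, RBPJ in 11 (19.6%) against 16.0%, RUNX (TGTGGTT) in 7 (12.5%) against 10.5% and PU.1 (GAGGAAGT) in 3 (5.36%) against 2.91%. The NF-kB and RBPJ letters can share bases. The median GC content was 54.0% in the family windows and 46.8% in all, and it was 62.7% in the 21 own-promoter regions of the family and 50.3% in its other 35 regions. These shares are descriptions of letters in a window, and their difference from all regions was not tested.

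Among ligands of T-cell costimulation, 2 of 5 were called in all 6 libraries, against 59.6% of all genes. TNFSF4 (OX40L), whose product is displayed by activated antigen-presenting cells, had its strongest region in an intron at chr1:173164530-173165376, 9746 bp from the start. Its −log10 q was 24.2 and 25.6 in the old-buffer libraries, 18.5 and 16.5 in the purified new-buffer libraries and 27.1 and 28.5 in the unpurified ones, and it ranked 4231 by the mean. By −log10 q the purified new buffer held the lowest values and the unpurified protocol the highest. By fold enrichment the old-buffer libraries (7.69 and 7.70) lay within the range of the unpurified ones (7.67 and 8.18). The fold enrichment of this region passed no comparison between protocols (limma, lowest adjusted p 0.90). Regions at the TNFSF4 promoter were called in 4 libraries. TNFSF9 (4-1BBL) was called at its promoter in all 6, with 27 and 21 reads in the old-buffer libraries, 36 and 31 in the purified new-buffer libraries and 31 and 29 in the unpurified ones at the summit.

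TNFSF14 (LIGHT) was called at its promoter, at chr19:6669984-6670484, and the −log10 q by library was no call in the old-buffer libraries, 13.2 and no call in the purified new-buffer libraries and 6.32 and 10.3 in the unpurified ones. It was thus found in 3 libraries, all of the new buffer. TNFSF15 (TL1A) had a weak promoter region, whose −log10 q by library was no call and 3.73 in the old-buffer libraries, 4.58 and no call in the purified new-buffer libraries and no call in the unpurified ones. Each of these 2 ligands lacked a call in 3 or 4 libraries, and TNFSF18 lacked one in all.

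TNFSF10 (TRAIL), a ligand that triggers apoptosis, had 3 regions that were called in all 6 libraries, at the promoter and at 2686 bp and 11129 bp within the gene. The −log10 q of its strongest peak ranged from 7.34 to 15.5. All of its receptors that were measured were called in all 6 libraries, against 59.6% of all genes. They were the death receptors TNFRSF10A and TNFRSF10B, the decoys TNFRSF10C and TNFRSF10D, and TNFRSF11B (osteoprotegerin, a soluble decoy that also binds RANKL). TNFRSF10C was the exception in position, since its promoter held no peak in any library and its region lay beyond the end of the gene, 17271 bp from the start. Of 21 ligand and receptor pairs, 6 had both partners called in all 6 libraries. The share of 59.6% is of single genes, and no share over pairs of other genes was computed. Of the 6 pairs, 5 were TRAIL with its receptors and so shared 1 ligand. The sixth was TNFSF12 with TNFRSF12A (Fn14), whose peaks lay at promoters of neighbouring genes, SENP3 and HCFC1R1. In 2 pairs, OX40L with OX40 and 4-1BBL with 4-1BB, the ligand was called in all 6 libraries and the receptor in none. In 3 pairs the receptor was called in all 6 and the ligand in none, namely CD30 with CD30L and RANKL with RANK or osteoprotegerin.

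The receptors with the strongest peaks by the mean were TNFRSF21, TNFRSF19 and TNFRSF11B. TNFRSF21 (DR6, a death receptor) was called at its promoter, chr6:47277194-47278001, at rank 4105, with a −log10 q of 23.2 and 27.6 in the old-buffer libraries, 24.8 and 12.7 in the purified new-buffer libraries and 32.2 and 22.5 in the unpurified ones. TNFRSF19 (TROY) was called at its promoter, chr13:24152882-24153888, with 31.0 and 9.30 in the old-buffer libraries, 29.4 and 20.2 in the purified new-buffer libraries and 20.4 and 18.2 in the unpurified ones. TNFRSF11B was called at its promoter, chr8:119963757-119964657, with 17.9 and 14.9 in the old-buffer libraries, 26.9 and 20.7 in the purified new-buffer libraries and 24.9 and 22.8 in the unpurified ones. The lowest value fell in replicate 2 of the purified new buffer for TNFRSF21 and in replicate 2 of the old buffer for TNFRSF19 and TNFRSF11B, and for TNFRSF19 the 2 old-buffer libraries were the highest and the lowest of the 6.

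Of receptors with a death domain 3 of 5 were called in all 6 libraries, as were 3 of 4 decoys and 6 of 9 other receptors that signal through TRAF adaptors, set against 59.6% of all genes. The receptors of BAFF and APRIL, which also recruit TRAF proteins and carry no death domain, are not among these 9, and 0 of 3 were called in all 6. TNFRSF1A (TNFR1, the main receptor of TNF) was called in 2 libraries and never at its promoter. In replicate 1 of the old buffer the peak was intronic, with a −log10 q of 13.2, and in replicate 2 of the unpurified protocol it was the end of a region in the neighbouring gene PLEKHG6, with 4.73. TNFRSF18 (GITR) was called in replicate 1 of the old buffer, with 4.04, and in replicate 1 of the purified new buffer, with 5.55, at an intergenic region. The other 9 receptors called in all 6 libraries had a mean −log10 q of 6.69 to 19.3. The strongest region of TNFRSF8 (CD30) was intronic, 15634 bp from the start, and its promoter was called in no library. TNFRSF1B (TNFR2) and TNFRSF11A (RANK) were called in all 6 libraries, but no single region of either gene was.

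In each library the share of receptors with a peak exceeded that of ligands. Receptors stood at 76.2% and 66.7% in the old-buffer libraries, 76.2% and 66.7% in the purified new-buffer libraries and 66.7% and 71.4% in the unpurified ones. Ligands stood at 54.5% and 63.6% in the old-buffer libraries, 72.7% and 54.5% in the purified new-buffer libraries and 63.6% and 63.6% in the unpurified ones. All genes stood at 68.4% and 66.9%, 70.3% and 66.1%, and 69.5% and 69.0% in the same order. These shares rest on few genes, since 6 to 8 of 11 ligands and 14 to 16 of 21 receptors had a peak. The difference, ligands minus receptors, was −8.51 percentage points on average (range −21.6 to −3.03, lower in 6 of 6 libraries). An exact sign-flip test over libraries gave p = 0.03125, the smallest that 6 libraries allow, and 0.125 after Benjamini-Hochberg adjustment over 4 tests, which misses 0.05. The ligand and receptor genes are the same in all libraries, so this test covers the spread between libraries only. The difference was −18.5 with gene bodies extended by 20 kb on each side and −20.4 without peaks at promoters of other genes. With the readthrough gene counted as a ligand it was −5.36, negative in 4 and positive in 0 libraries. It was −7.58 with a −log10 q of at least 5, −6.78 with equal numbers of peaks and −6.93 with summits in the window. In each of these last settings it was negative in 5 libraries and positive in 1. With gene bodies alone it was −7.72, negative in 4 and positive in 2 libraries.

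Promoter peaks gave a smaller difference, −5.12 percentage points, lower in 4 and higher in 2 libraries (exact p = 0.344, adjusted 0.458). Each strongest peak was also given its percentile by −log10 q among all peaks of its library, taken as 0 where none was called. The median of this percentile, averaged over libraries, was 41.3 for ligands, 41.6 for receptors and 56.2 for all genes. The difference, ligands minus receptors, was −0.289 (exact p = 1, adjusted 1). The sign turned when replicate 1 (1.34) or replicate 2 (0.442) of the old buffer or replicate 2 of the unpurified protocol (1.55) was left out. This difference was −10.7 with gene bodies alone and −31.9 without peaks at promoters of other genes (exact p = 0.0625, adjusted 0.125, negative in 5 of 6 libraries). Ligand windows held 0.341 peaks per 10 kb on average, receptor windows 0.294 and windows of all genes 0.166. The longest window was 115.7 kb in the family and 2483.5 kb among all genes, so these densities are not of windows alike in length. Ligand windows thus held 0.0474 more peaks per 10 kb than receptor windows, higher in 4 of 6 libraries (exact p = 0.125, adjusted 0.25). This difference was −0.0217 with gene bodies extended by 20 kb on each side. It was 0.0681 with a −log10 q of at least 5, 0.0690 with equal numbers of peaks and 0.0863 with gene bodies alone. In each of these last settings it was higher in 6 of 6 libraries (exact p = 0.03125, adjusted 0.125).

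**Figure D3:**
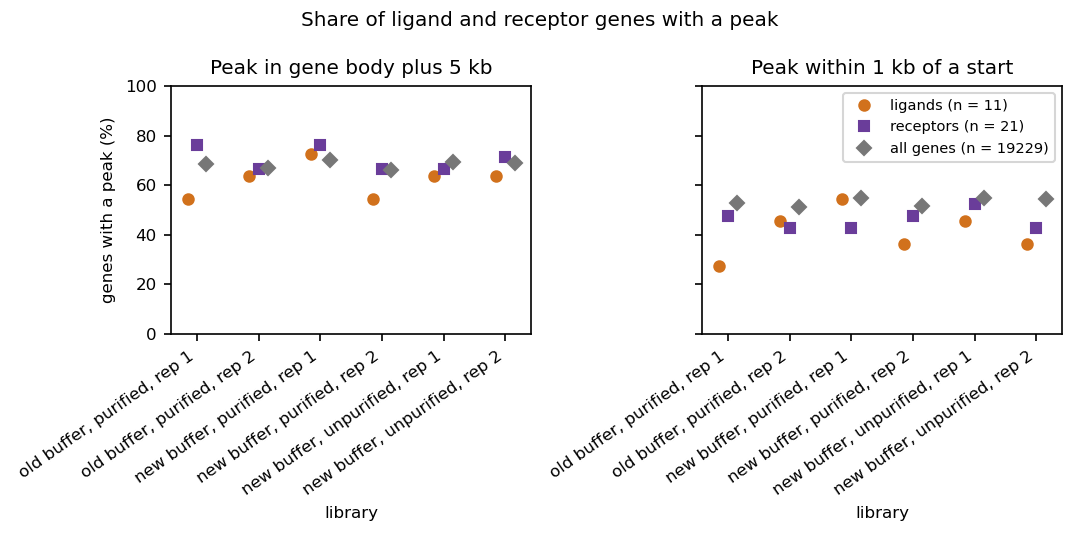
Share of genes with a peak in each library. The y axis gives the percent of the 11 ligands, the 21 receptors and all 19229 genes with a peak in the window or at the promoter, with 1 point per library; receptors lie above ligands in all 6 libraries for windows but not for promoters.

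Windows with a peak made up 67.7% of the family and 68.3% of all genes on average, a difference of −0.638 percentage points (exact p = 0.656, adjusted 0.656). This difference was 6.89 with gene bodies extended by 20 kb on each side and −11.4 with gene bodies alone, both past the threshold. At promoters, 13 to 16 of 32 family genes (40.6% at the lowest) and 51.4% to 54.9% of all genes had a peak, a difference of −9.05 percentage points (range −13.7 to −4.64) that was negative in 6 of 6 libraries (exact p = 0.03125, adjusted 0.0625 over 2 tests), which misses 0.05. In all 6 libraries, 10 of 32 family promoters (31.3%) were called, against 45.4% of all promoters. Those 10 were TNFSF9, TNFSF10, TNFSF13B, TNFRSF10A, TNFRSF10B, TNFRSF10D, TNFRSF11B, TNFRSF14, TNFRSF19 and TNFRSF21. Peaks at promoters of other genes were also left out. In this setting a family gene kept peaks at promoters of any family member, whereas every other gene kept only those at its own promoter. The family and the other genes were thus not filtered alike. The difference at promoters turned to 4.23 and that in windows to 5.33. Then 15 family genes rather than 18 were called in all 6 libraries, and those lost were TNFSF12, TNFSF13 and TNFRSF12A.

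Family windows held 56 regions. All 6 libraries shared 21 of them (37.5%), against 35.6% of all autosomal regions, and 12 (21.4%) were in 1 library only, against 27.3%. Own promoters accounted for 21 regions, 10 of them in all 6 libraries, and 33 regions lay at no promoter, 9 of them in all 6. Promoters of other genes only accounted for 2 regions, both in all 6. The same split was not made over all autosomal regions, so these counts are not read as a trait of the family. By summit position, 23 regions were promoter, 17 intronic, 14 intergenic and 2 exonic.

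The protocols were compared to see whether the new buffer and the omission of purification alter the peaks at these genes. Family peaks numbered 33 and 34 in the old-buffer libraries, 46 and 35 in the purified new-buffer libraries and 37 and 35 in the unpurified ones. Windows of all genes held 23732 and 22249, 24229 and 19755, and 23232 and 22305 peaks in the same order. The differences in mean of the family peaks were 7 for the purified new buffer minus the old buffer and 2.5 for the unpurified minus the old. For the unpurified minus the purified new buffer the difference was −4.5. With 2 libraries against 2 the smallest exact permutation p is 0.33, and the p-values were 0.333, 0.333 and 1 (adjusted 0.5, 0.5 and 1). Replicate 1 of the purified new buffer stood above the other 5 libraries, and without it the first difference was 1.5 and the last 1.

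Regions found in both libraries of 1 protocol and neither of another were few. The purified new buffer gained 2 of 51 such regions over the old buffer (3.92% against 1.83% of all regions), namely an intronic region of TNFRSF13B at chr17:16873318-16873876, with 4.57 and 5.13 for −log10 q, and a region in an exon of RHOBTB2 beyond the 3′ end of TNFRSF10B, at chr8:22876680-22877074, with 8.38 and 5.29. The second was also absent from both unpurified libraries, the only such region (background 1.74%). No family region went the other way, from the old buffer to the purified new buffer (background 3.2%). The unpurified protocol gained 2 over the old buffer (background 2.42%), the TNFSF14 promoter and the PLEKHG6 region at chr12:6432359-6432944, which reached the TNFRSF1A window in 1 of its 3 libraries. The farther TNFRSF17 region was found in both libraries of the old buffer and neither of the unpurified protocol (background 2.8%), and none was found the other way between unpurified and purified new buffer (background 2.7%).

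**Figure D4:**
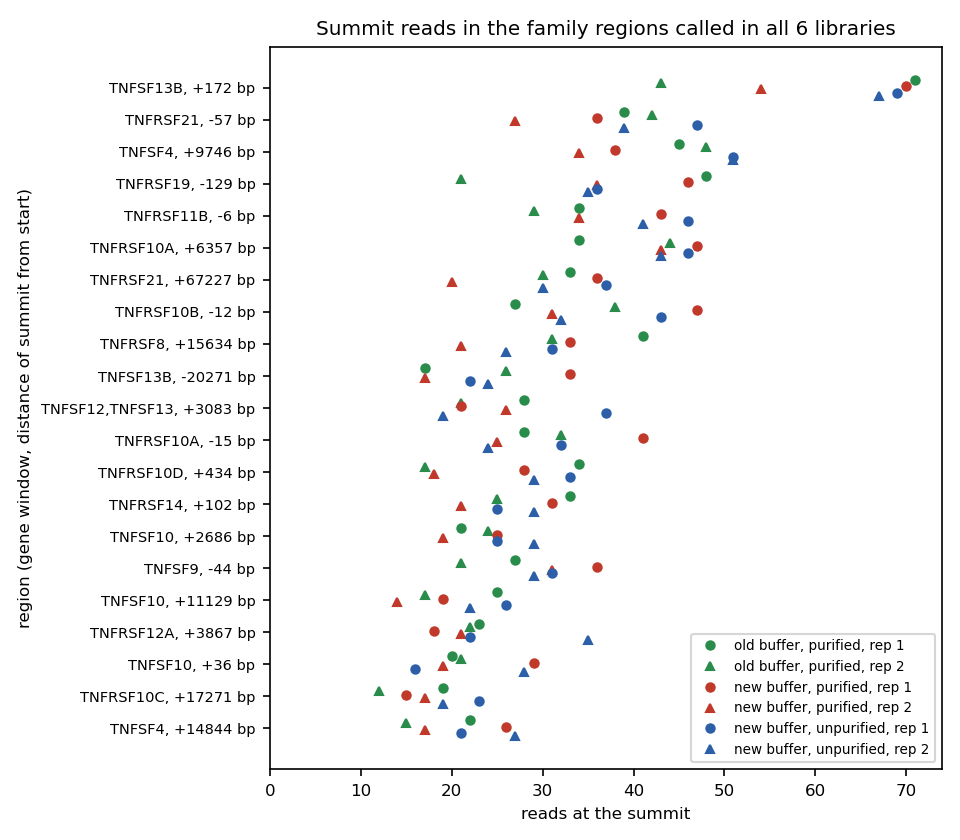
Reads at the summits of the 21 family regions called in all 6 libraries. The x axis gives the read pileup at the summit, rows are regions named by gene and by distance of the summit from its start in bp, and each point is 1 library, with a colour for each protocol and a shape for each replicate; the TNFSF13B promoter holds 43 to 71 reads and the lowest value of any region is 12.

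Fold enrichment of the summit over local background was compared with limma at the 20064 regions called in all 6 libraries, sex chromosomes included, of which 21 lay in family windows. None of these 21 passed an adjusted p of 0.05 in any of the 3 comparisons, and over all regions 0.00498%, 0.00498% and 0% did. At an unadjusted p under 0.05 the family had 1, 1 and 0 regions, where all regions had 6.85%, 6.54% and 4.89%. In the purified new buffer against the old, this was the TNFSF9 promoter, with a log2 difference of 0.41 (SE 0.20) and an adjusted p of 0.72 in limma. In the unpurified protocol against the old it was the TNFSF13B promoter, with 0.36 (SE 0.17) and an adjusted p of 0.72 in limma. Family differences ranged from −0.24 to 0.42, from −0.28 to 0.36 and from −0.43 to 0.30, with a median SE of 0.21, and a p that misses the threshold does not show that the protocols gave equal peaks.

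The rest of the pathway was described with lists of genes. Of 12 TNF family genes with other symbols, 3 were called in all 6 libraries, CD40 (the B-cell costimulatory receptor), FAS (the death receptor of Fas ligand) and RELT, against 59.6% of all genes. Another 5, LTBR, NGFR, EDAR, TNF and LTB, were called in none, and FASLG, LTA, CD27 and CD70 were called in 5, 4, 3 and 2 libraries. Of 13 genes that act downstream of TNF receptors, 12 were called in all 6 libraries, and 11 of them at the promoter, against 45.4% of all genes. The exception was TRADD, the adaptor of TNFR1, called in 5. The highest ranked was BIRC3, an inhibitor of apoptosis recruited with TRAF proteins, at rank 470, and RIPK1, a kinase of the TNFR1 complex, ranked 1428, close to TNFSF13B at 1421.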

How the data were processed

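The authors aligned reads to hg19 by Bowtie2 2.1.0, discarded duplicates (Picard 1.79) and reads of the mitochondrial genome, and used MACS2 with a q cutoff of 0.01 to find narrow peaks. These versions are from the submitters' processing notes. The methods speak of merging reads of a condition, but 1 list per library was used here. For each peak the deposited values are a score (10 times the −log10 q, cut to whole numbers, not used further), the fold enrichment at the summit against local background, the −log10 p-value and the −log10 q-value.

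Genes were those of GENCODE version 44 lifted to GRCh37. Genes were ranked by the mean over libraries of the −log10 q of their strongest peak, taken as 0 where none was called. Peaks that overlapped or adjoined were merged over libraries into regions. Reads at the summit were solved from the deposited fold enrichment and −log10 p. Shares of genes were compared by an exact two-sided sign-flip test over 6 libraries and protocols by an exact permutation test, each adjusted by the Benjamini-Hochberg method. Log2 fold enrichment, centred on the median of each library, was fitted with limma 3.58.1 (trend) over all regions called in 6 libraries.

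The members, gene lists and tests were chosen with earlier results of these data known. Named genes were the BAFF and APRIL genes, the 3 ligands and 3 receptors with the strongest peaks by the mean, and all genes called in fewer than 6 libraries. Named regions were the strongest of these genes and those specific to a protocol. TNFSF9, TNFSF10 and its receptors, TNFRSF8, TNFRSF12A, TNFRSF1B, TNFRSF11A and TNFRSF14 were named after their values were seen. Alternatives were a stricter q, the strongest 30136 peaks of each library, other windows, summits in place of peaks, other scalings and each library left out. A further B-cell marker is not reported here. The functions were tested on simulated data, and overlaps were checked with bedtools 2.31.1. The analysis used Python 3.11.15, NumPy 2.4.6, pandas 2.3.3, SciPy 1.17.1 and R 4.3.3.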

Additional observations from a re-analysis of the deposited data

How the results depend on the processing

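Over 13 results and 83 alternatives that kept all libraries, 70 kept their direction and side of the threshold or, for counts, stayed within 1.5 times the main value, and 7 reversed. Family genes with a peak in all 6 libraries, 18 as reported, numbered 13 with gene bodies alone and 25 with gene bodies extended by 20 kb on each side. They numbered 15 to 19 otherwise. With gene bodies extended by 20 kb on each side, ligands minus receptors in peaks per 10 kb was −0.0217. In that setting the family minus all genes in share of genes with a peak was 6.89 (exact adjusted p = 0.03125). Without peaks at promoters of other genes, a filter that was not alike for the family and other genes, the family minus all genes was 5.33 percentage points for windows and 4.23 for promoters. With the readthrough gene counted, it was 0.340 for windows, and the difference in median percentile was 6.78; with summits in the window the latter was 0.451. The family passed the threshold below all genes with gene bodies alone (−11.4 points) and with equal numbers of peaks (−1.91 for windows and −10.2 for promoters). The cause was not tested. Regions called by limma over the whole genome numbered 9 and 4 with summit reads in place of fold enrichment, for the purified and the unpurified new buffer against the old, and 0 with quantile normalization for the latter, where 1 and 1 were called.

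Leaving out each library in turn gave 18 to 19 family genes in all libraries, ligand minus receptor shares of −9.61 to −5.89 for windows and −8.48 to −2.08 for promoters, median percentiles of −3.12 to 1.55 and peaks per 10 kb of 0.0290 to 0.0606. The family minus all genes ranged from −1.71 to 0.000813 for windows and from −9.93 to −8.12 for promoters. Family peaks differed by 1.5 to 12.5, 1.5 to 3.5 and −10 to 1 for the purified new buffer and the unpurified against the old, and the unpurified against the purified, and called regions numbered 0 to 6, 0 to 2 and 0 to 0. With 5 libraries the smallest sign-flip p is 0.0625, so no p under 0.05 could be had. Same-numbered libraries did not deviate together (r = 0.0130, −0.0008 and 0.0149 over 20064 regions), and the main tests did not use the numbers as a pairing. At summits of few reads such a correlation cannot show that same-numbered libraries shared no culture. With the replicate number as a block, the differences in family peaks were 7, 2.5 and −4.5, and 1, 1 and 0 regions were called. Total reads are not known, and a peak of few reads may be missed in 1 library at this depth.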
